A study of Populus ussuriensis with 20 samples.

Results

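The WUSCHEL-related homeobox (WOX) genes described here are 8 poplar genes that were listed by gene ID and name: WOX11/12a and WOX11/12b, WOX4a and WOX4b, 3 genes of the WOX13 type, and WOX5a. All 8 were among the 39538 gene models of the deposited tables. Of these, 6 had enough counts to be tested, while WOX11/12b and WOX5a fell below the filter on low counts. The deposited tables pair no ID with a gene name or product, so the names are those of the list and were not checked against sequence. For the same reason the tissue was not checked against its defining markers here.

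The material was the lowest 0.5 cm of stem cuttings from plants of the poplar Populus ussuriensis grown in vitro. Cuttings of plants carrying 35S::PuHox52 (PuHox52-OE, here OE) and of wild-type plants (WT) were taken at 6, 12, 24, 48 and 96 h after cutting, with 2 libraries in each of the 10 groups and, per the series text, 40 cuttings in each biological replicate. PuHox52 is a homeodomain-leucine zipper transcription factor, and the 35S promoter of cauliflower mosaic virus is active in most plant tissues. How many transgenic lines stand behind the OE group is not stated in the labels, and no group was uncut. The transgene's own level was not used here to check the labels, because the files tie no ID to PuHox52. Replicate numbers 1 and 2 follow the order in which the libraries of a group are listed, since the labels carry none. The libraries held 10399262 to 27472303 counts each. Levels are given as CPM, the read count scaled to a common library size, and FPKM, the authors' value per length, is used wherever genes are compared with each other. A gene was called when its adjusted p in the fit over all genes was under 0.05. In bulk tissue, fewer cells of a type and less RNA per cell cannot be told apart.

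WOX proteins are plant transcription factors that bind DNA through a homeodomain and act in stem cells and in the founding of organs. In Arabidopsis, WOX11 and WOX12 mark the change of cells near a wound into root founder cells during rooting of detached organs, and WOX5 is active in the organising centre of the root meristem. WOX4 keeps the cells of the vascular cambium dividing, downstream of a peptide signal from the phloem and its receptor kinase. WOX13 belongs to an older branch of the family and is expressed in many tissues. In poplar, raised WOX11/12a levels have been reported to increase the number of adventitious roots, and WOX4 genes to be needed for growth of the cambium.

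The 8 genes lie on 6 chromosomes. Per the deposited coordinates, whose genome build is not given in the sources used here, WOX11/12a (Potri.013G066900.v3.0) occupies chromosome 13, 5238849 to 5241601, plus strand, and WOX11/12b (Potri.019G040800.v3.0) chromosome 19, 4693429 to 4695238, plus strand. WOX4a (Potri.014G025300.v3.0) is on chromosome 14, 2169818 to 2171379, and WOX4b (Potri.002G124100.v3.0) on chromosome 2, 9309765 to 9311320, both on the plus strand. The WOX13 type genes are Potri.005G101800.v3.0 (chromosome 5, 7788135 to 7790958, plus strand), Potri.005G252800.v3.0 (chromosome 5, 25454469 to 25456507, plus strand) and Potri.002G008800.v3.0 (chromosome 2, 484202 to 486345, minus strand). WOX5a (Potri.008G065400.v3.0) is on chromosome 8, 3963469 to 3964104, minus strand. Of the 8 loci, 6 overlap no other gene model. Potri.005G101800.v3.0 shares 8 bases with a model on the opposite strand, and Potri.002G008800.v3.0 shares 1012 bases with one, Potri.002G008700.v3.0. The strand setting of the counting is not given in the sources used here. Reads from the shared stretch of Potri.002G008800.v3.0 may therefore be split or lost, and how many was not tested. Its partner held 1185 counts over all libraries against 3134 for the WOX gene, which sets no bound on reads lost from both.

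Compared per length, 3 genes made up most of the measured WOX transcript. Potri.005G101800.v3.0 had the highest mean FPKM in all 10 groups, with group means from 28.1 to 59.5 FPKM. It was followed by the WOX4 copies, WOX4a at 16.1 to 45.4 FPKM and WOX4b at 13.7 to 58.4 FPKM. At 6 h Potri.005G101800.v3.0 and WOX4b overlapped, at 59.5 ± 3.31 and 58.4 ± 5.47 FPKM in OE and 54.7 ± 3.75 and 52.5 ± 3.15 FPKM in WT (SD, n = 2). The other WOX13 type genes stood lower in every group, Potri.005G252800.v3.0 at 3.84 to 6.30 FPKM and Potri.002G008800.v3.0 at 4.25 to 5.84 FPKM, and the libraries of this pair overlapped in every group except WT at 6, 12 and 24 h. WOX11/12a lay below both of them at 6, 12 and 96 h in each genotype, and at 24 and 48 h its place depended on the scale. Its deposited FPKM was above both at these times, but that FPKM did not follow its counts: it was 0.890 to 2.18 times the CPM per 1000 bases of the deposited length over the libraries, against 1.13 to 1.19 times for WOX4a. On counts per length, WOX11/12a was above both only in WT at 48 h (6.07 ± 0.0512 CPM per 1000 bases; SD, n = 2). It overlapped with both in OE at 48 h (4.43 ± 0.704), was below Potri.005G252800.v3.0 and overlapped with Potri.002G008800.v3.0 in OE at 24 h (4.86 ± 0.240), and was below both in WT at 24 h (3.10 ± 0.0230). This scale was added after the data were seen. WOX4 genes together held 58.1 to 61.1% of the summed FPKM of the 8 genes in the 4 libraries at 6 h and 34.2 to 47.8% in the 16 later libraries. WOX11/12a held at most 0.392% of the summed FPKM at 6 h and 7.32 to 9.87% at 48 h, and by counts per length at most 0.320% at 6 h and 4.37 to 7.24% at 48 h.

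WOX11/12a, the homologue of the Arabidopsis founder cell genes, was close to absent at 6 h and rose strongly in both genotypes. In OE the libraries held 0.167 and 0 CPM at 6 h, 1.70 and 1.76 CPM (12 h), 6.12 and 6.56 CPM (24 h), 6.43 and 5.13 CPM (48 h), then 2.26 and 3.22 CPM at 96 h. In WT they held 0.586 and 0.156 CPM at 6 h, 1.85 and 3.15 CPM (12 h), 4.03 and 4.07 CPM (24 h), 7.96 and 7.87 CPM (48 h), then 0.905 and 1.74 CPM at 96 h. Both genotypes thus showed a transient increase, with the highest mean at 24 h in OE and at 48 h in WT. In OE the means at 24 and 48 h did not differ beyond their spread (log2 fold change -0.13, SE 0.31).

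The increase of WOX11/12a was called by 12 h in both genotypes. The values at 6 h rest on 3 counts in OE and 8 in WT, summed over both libraries, and the deposited normalized values amount to 2 reads in OE and 7 in WT. In OE the 76 counts at 12 h gave a ratio to 6 h of 17.3 (95% counting interval 5.70 to 85.7), and the 198 counts at 24 h a ratio of 63.3 (21.4 to 310). In WT the 129 counts at 12 h gave a ratio to 6 h of 7.35 (3.62 to 17.4). The fitted level in WT was 7.07-fold higher at 12 h than at 6 h (log2 fold change 2.82, SE 0.52). For 12 against 6 h the quasi-likelihood test of edgeR, adjusted over all genes by the Benjamini-Hochberg method, gave adjusted p = 0.000232 in OE and 0.000657 in WT. With WT 6 h replicate 1 left out, the fitted log2 fold change in WT was 3.96, and with WT 6 h replicate 2 left out it was 2.1. In OE it was 4.03, with 3.33 without OE 6 h replicate 2 and, where only the library with 0 counts was left at 6 h, 7.94. The call held in these 4 fits.

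From 12 to 24 h WOX11/12a rose 3.66-fold in OE (log2 fold change 1.87, SE 0.34, adjusted p = 0.00749 by edgeR's test). The corresponding step in WT, 1.61-fold (0.68, SE 0.34), was not called (adjusted p = 0.199). Whether this or any other step of WOX11/12a differed between OE and WT was tested only within the joint test of the genotype difference over time. Its result is given further below. Leaving out OE 12 h replicate 1 ended the call in OE (adjusted p = 0.103), as did leaving out OE 24 h replicate 2 (0.0520) or using limma on the deposited normalized values (0.130). From 24 to 48 h, at the same hour of day, the step in WT was 1.95-fold (0.97, SE 0.32, adjusted p = 0.0898) and was not called either. That in OE was not called (-0.13, adjusted p = 0.858). Comparisons of WOX11/12a with 6 h, and of 24 with 12 h, join different hours of the cycle of 16 h light and 8 h dark. Time since cutting and hour of day cannot be told apart in them.

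After 48 h WOX11/12a fell in WT, where it was 6.04-fold lower at 96 h than at 48 h (log2 fold change -2.59, SE 0.36, adjusted p = 0.000242 by edgeR's test). No library left out ended that call. In OE the level at 96 h was 2.09-fold lower than at 48 h (-1.06, SE 0.32), with an adjusted p of 0.0577. DESeq2 (0.0261) and edgeR with no filter on low counts (0.0307) called this step, and so did edgeR without any 1 of the 4 libraries at 6 h or the 2 WT libraries at 12 h (0.0388 to 0.0483). Against 24 h, the same hour of the 16 h light and 8 h dark cycle, WOX11/12a at 96 h was 2.29-fold lower in OE (-1.19, SE 0.32, adjusted p = 0.0133) and 3.09-fold lower in WT (-1.63, SE 0.38, adjusted p = 0.00473). Leaving out OE 24 h replicate 1 (0.0668) or OE 96 h replicate 1 (0.0966) ended the call in OE, as did limma (0.136), and leaving out WT 96 h replicate 1 ended the one in WT (0.0661). At 96 h the gene was still above its level at 6 h, with 131 against 3 counts in OE (ratio 28.3, interval 9.47 to 139) and 3.67-fold in WT (1.88, SE 0.59). The WT value was called (adjusted p = 0.0114), but with 1 library left out it was 1.14 (WT 6 h replicate 2, adjusted p = 0.174), 1.35 (WT 96 h replicate 2, 0.108) or 3.00 on the log2 scale (WT 6 h replicate 1, 0.00777).

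**Figure D1:**
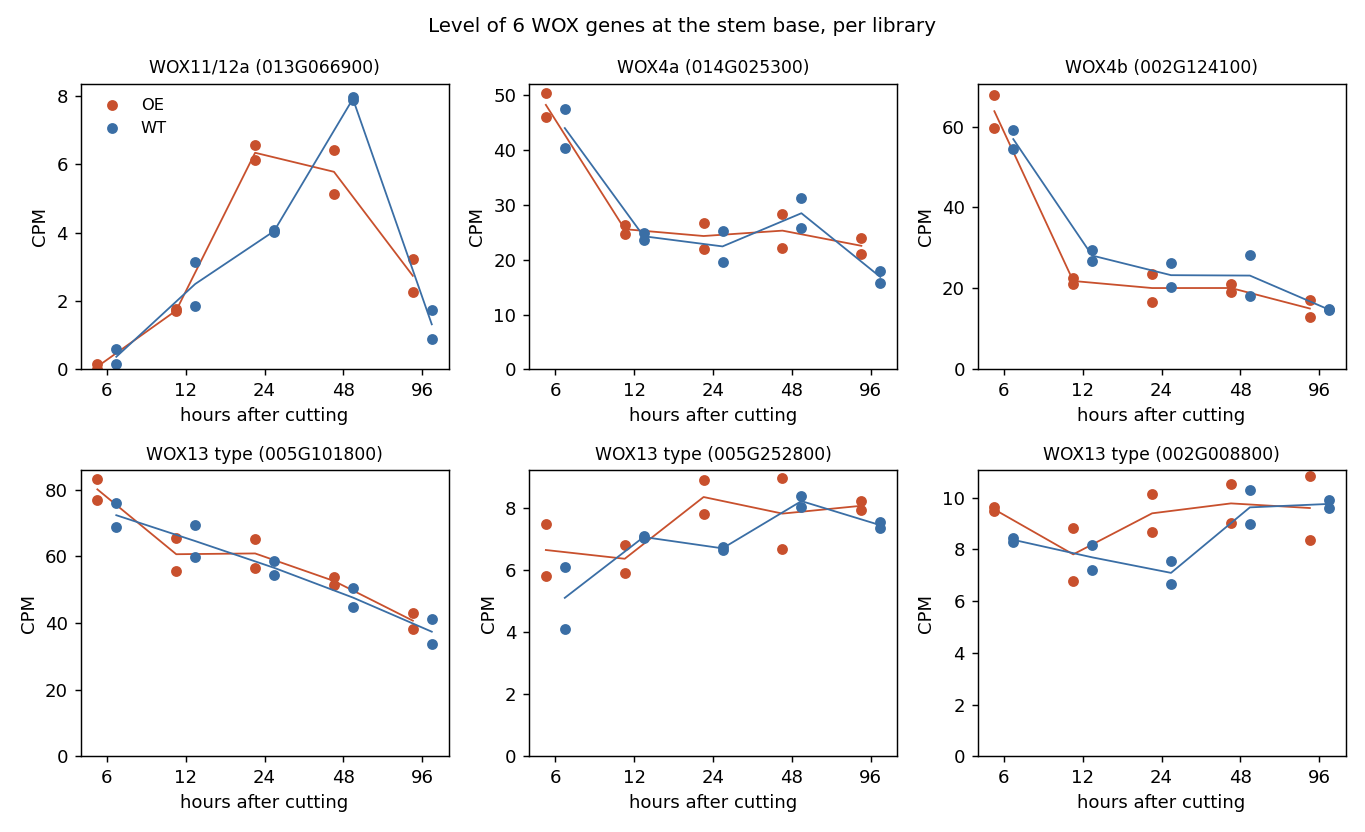
Level of the 6 tested WOX genes in CPM (vertical axes, starting at 0) against hours after cutting (sampled times, evenly spaced and not to scale). Each point is 1 library, OE in orange left of WT in blue, and lines join the means of 2 libraries; WOX11/12a is near 0 at 6 h and highest at 24 h in OE and at 48 h in WT, while WOX4a, WOX4b and Potri.005G101800.v3.0 are lower at 96 h than at 6 h in both genotypes.

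The genotypes stood on different sides of each other at different times for WOX11/12a, but no difference passed edgeR's test. OE lay below WT in both libraries at 12 and 48 h, above it in both at 24 and 96 h, and overlapped with it at 6 h. The 3 counts at 6 h in OE against 8 in WT gave a ratio of 0.287 (95% counting interval 0.0490 to 1.19). On the log2 scale the difference at 12 h was -0.54 (SE 0.35), that of 24 h was 0.64 (SE 0.33), that of 48 h was -0.45 (SE 0.31) and that of 96 h was 1.08 (SE 0.38). At 96 h this was 2.11-fold higher in OE, with a 95% confidence interval of 0.28 to 1.88 on the log2 scale, an unadjusted p of 0.0114 and an adjusted p of 0.177. With WT 96 h replicate 1 left out it was 0.67, and with WT 96 h replicate 2 left out it was 1.60. The joint test of whether the genotype difference changed over the 5 times gave an adjusted p of 0.150 for WOX11/12a (0.00893 before adjustment). DESeq2's likelihood ratio test called it (adjusted p = 0.0277), limma did not (0.316), and edgeR gave 0.118 to 0.335 when 1 library was left out. With the times from 12 to 96 h only, which leaves out the few counts at 6 h, it was 0.235.

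The second root-type homologue and the root meristem gene were hardly detected. WOX11/12b had 0 counts in all 20 libraries, of 353541055 counts in all. A count of 0 allows up to 3 counts in a library, or 0.109 to 0.288 CPM, and 0.00849 CPM over all libraries, for counting error only. WOX5a had 3 counts in all, 1 in an OE library and 2 in a WT library, and these libraries were both taken at 48 h. No fold is given for either gene. How the authors counted reads that match both WOX11/12 copies is not given in the sources used here, so a transfer of reads between the copies was not tested.

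The WOX4 genes, homologues of the cambium gene of Arabidopsis, fell together after cutting in both genotypes. WOX4b had 67.8 and 59.7 CPM at 6 h, 21.2 and 22.6 CPM (12 h), 16.6 and 23.6 CPM (24 h), 19.2 and 21.0 CPM (48 h), then 12.9 and 17.2 CPM at 96 h in OE. In WT it had 54.5 and 59.2 CPM at 6 h, 29.6 and 26.7 CPM (12 h), 20.4 and 26.2 CPM (24 h), 18.2 and 28.2 CPM (48 h), then 14.9 and 14.7 CPM at 96 h. All 16 later libraries lay below the 4 libraries at 6 h, and most of the fall was over by 12 h.

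WOX4a had 46.0 and 50.3 CPM at 6 h, 24.7 and 26.4 CPM (12 h), 21.9 and 26.7 CPM (24 h), 22.2 and 28.4 CPM (48 h), then 21.1 and 24.0 CPM at 96 h in OE. In WT it had 47.5 and 40.4 CPM at 6 h, 23.6 and 24.9 CPM (12 h), 19.6 and 25.3 CPM (24 h), 25.8 and 31.1 CPM (48 h), then 17.9 and 15.8 CPM at 96 h. Here too the libraries at 6 h lay above all later ones.

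At 12 h against 6 h, WOX4b in OE was lower by a factor of 2.92 (log2 fold change -1.55, SE 0.19, adjusted p = 2.29e-05) and 2.02-fold lower in WT (-1.02, SE 0.19, adjusted p = 0.000608) by edgeR's quasi-likelihood test. WOX4a was 1.89-fold lower in OE (-0.91, SE 0.15, adjusted p = 0.000222) and 1.81-fold lower in WT (-0.85, SE 0.15, adjusted p = 0.000427). At 96 h against 6 h, WOX4b was 4.22-fold lower in OE (-2.08, SE 0.19) and 3.84-fold lower in WT (-1.94, SE 0.20), and WOX4a 2.13-fold lower in OE (-1.09, SE 0.15) and 2.60-fold lower in WT (-1.38, SE 0.16). These calls held in all 20 fits that left out 1 library. The fall from 6 h compares different hours of the light cycle, so time since cutting and hour of day cannot be told apart in it.

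Between 24, 48 and 96 h, which lie whole days apart, the WOX4 genes changed further in WT. WOX4a at 96 h was 1.69-fold lower than at 48 h (log2 fold change -0.76, SE 0.16, adjusted p = 0.00409), and WOX4b 1.58-fold lower (-0.66, SE 0.20, adjusted p = 0.0360). WOX4a lost its call without WT 48 h replicate 2 (0.0693) or WT 96 h replicate 2 (0.0555). WOX4b lost it without WT 48 h replicate 2 (0.459) or either WT library at 96 h (0.135 and 0.152), and with limma (0.0530). At 96 against 24 h in WT, WOX4b was 1.58-fold lower (-0.66, SE 0.20, adjusted p = 0.0220), a call lost without WT 24 h replicate 2 (0.169) or either WT library at 96 h (0.0884 and 0.0929), while WOX4a had -0.41 (SE 0.16) and an adjusted p of 0.0596. WOX4a was called in this comparison with no filter on low counts (0.0340) and in 13 of the 20 fits that left out 1 library (0.0359 to 0.0482). In OE the step from 48 to 96 h was -0.16 (SE 0.15) for WOX4a and -0.41 (SE 0.20) for WOX4b, and neither was called (adjusted p = 0.578 and 0.233). Over 24, 48 and 96 h alone, edgeR's joint test gave adjusted p of 0.00577 and 0.0293 for WOX4a and WOX4b in WT, and of 0.686 and 0.200 in OE. Whether the step itself differed between OE and WT was tested only within the joint test of the genotype difference over time, which gave adjusted p of 0.528 for WOX4a and 0.67 for WOX4b.

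The balance of the WOX4 copies also moved. WOX4a had 0.700 to 0.897 times the FPKM of WOX4b in the 4 libraries at 6 h and 1.10 to 1.67 times at 96 h, so the order of the copies was turned round. At 24 h the ratio was 1.37 and 1.16 in OE, against 0.986 and 1.02 in WT, and at 96 h it was 1.67 and 1.44 in OE, against 1.23 and 1.10 in WT. At 12 h it was 1.21 and 1.19 in OE, against 0.817 and 0.961 in WT. The genotypes did not overlap at these 3 times and overlapped at 6 and 48 h. By counts per length the ratio was 0.666 to 0.855 at 6 h and 1.05 to 1.60 at 96 h. The ratio was looked at after the levels were known, and its difference between the genotypes was not tested.

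**Figure D2:**
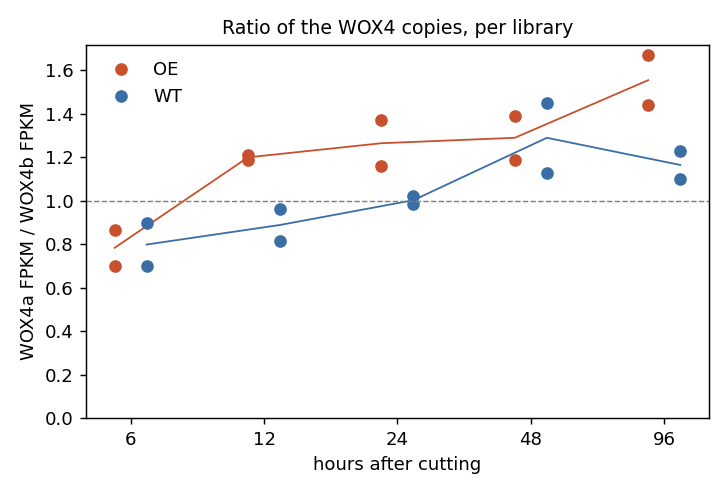
Ratio of WOX4a FPKM to WOX4b FPKM (vertical axis, starting at 0) in each library against hours after cutting (evenly spaced, not to scale), with OE in orange left of WT in blue and lines through the means of 2 libraries. The dashed line marks equal FPKM; the 4 libraries at 6 h lie at 0.700 to 0.897 and those at 96 h at 1.10 to 1.67.

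The WOX13 type genes did not move alike. Potri.005G101800.v3.0, the most abundant of the 8 genes per length, declined over the time course. It had 83.3 and 76.8 CPM at 6 h, 65.6 and 55.6 CPM (12 h), 65.1 and 56.6 CPM (24 h), 53.9 and 51.3 CPM (48 h), then 43.0 and 38.3 CPM at 96 h in OE. In WT it had 68.7 and 75.9 CPM at 6 h, 69.3 and 59.8 CPM (12 h), 58.6 and 54.5 CPM (24 h), 44.8 and 50.4 CPM (48 h), then 41.1 and 33.6 CPM at 96 h. The 4 libraries at 96 h lay below all others, and the decline was gradual rather than complete by 12 h. At 96 h against 6 h it stood lower in OE by a factor of 1.97 (log2 fold change -0.98, SE 0.12, adjusted p = 4.88e-06 by edgeR's test) and 1.94-fold lower in WT (-0.95, SE 0.13, adjusted p = 7.24e-06).

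Against 24 h, at the same hour of day, Potri.005G101800.v3.0 was lower at 96 h in OE (log2 fold change -0.58, SE 0.12, adjusted p = 0.0031 by edgeR's test) and in WT (-0.60, SE 0.13, adjusted p = 0.00235). The call in OE was lost without OE 24 h replicate 1 (0.0580). The step from 6 to 12 h was called in OE (-0.40, SE 0.12, adjusted p = 0.0165), and this call was lost without OE 6 h replicate 1 (0.105) or OE 12 h replicate 2 (0.168). In WT that step was -0.17 (SE 0.12, adjusted p = 0.312), and the joint test of the genotype difference over time gave an adjusted p of 0.842.

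The other WOX13 type genes had fewer calls. Potri.005G252800.v3.0 had 5.79 and 7.49 CPM at 6 h, 5.90 and 6.81 CPM (12 h), 8.89 and 7.80 CPM (24 h), 8.96 and 6.67 CPM (48 h), then 8.20 and 7.93 CPM at 96 h in OE. In WT it had 4.10 and 6.10 CPM at 6 h, 7.01 and 7.11 CPM (12 h), 6.65 and 6.74 CPM (24 h), 8.39 and 8.04 CPM (48 h), then 7.35 and 7.53 CPM at 96 h. At 96 h against 6 h it was called in WT, 1.44-fold higher (log2 fold change 0.53, SE 0.20, adjusted p = 0.0318), and not in OE (0.29, SE 0.19, adjusted p = 0.190). The joint test of the genotype difference over time gave an adjusted p of 0.639. The call in WT was lost without WT 6 h replicate 1 (0.309), without either WT library at 96 h (0.0777 and 0.0930), and with DESeq2 (0.0530).

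Potri.002G008800.v3.0 stayed within group means of 7.81 to 9.78 CPM in OE and 7.10 to 9.76 CPM in WT, and neither joint test over the times called it (adjusted p = 0.346 in OE and 0.0892 in WT). In WT its libraries at 24 h, 6.65 and 7.54 CPM, lay below those at 48 h, 8.97 and 10.3 CPM, a log2 difference of 0.44 (SE 0.17, adjusted p = 0.149). At 96 against 24 h in WT the log2 difference was 0.46 (95% confidence interval 0.09 to 0.82, unadjusted p = 0.0184, adjusted p = 0.0578 by edgeR's test). Of the 20 fits that left out 1 library, 2 called it. These lacked an OE library at 12 h, which is not part of this comparison. Over the 20 fits the log2 difference ranged from 0.37 to 0.53. For Potri.002G008800.v3.0 the longest interval, 96 against 6 h, gave 0.01 (95% confidence interval -0.34 to 0.36) in OE and 0.22 (-0.15 to 0.59) in WT.

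**Figure D3:**
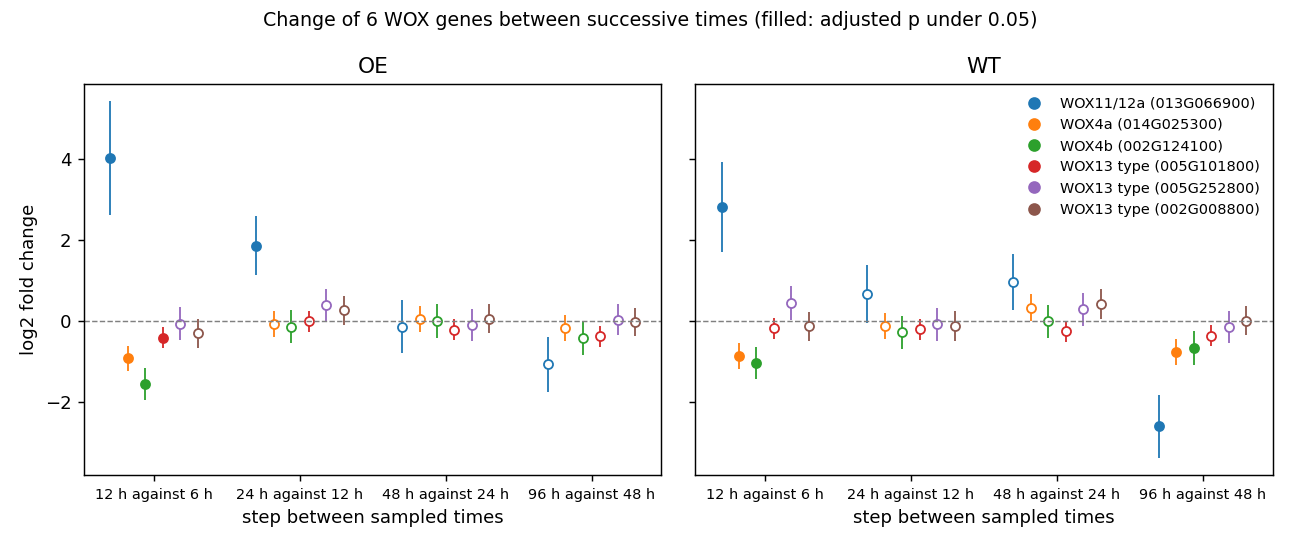
Log2 fold change of the 6 tested WOX genes between successive sampled times, in OE (left) and WT (right), with 95% confidence intervals. Filled points passed an adjusted p of 0.05; WOX11/12a is far above 0 at 12 against 6 h in both genotypes and lies at -2.59 for 96 against 48 h in WT, while the WOX4 genes are below 0 at 12 against 6 h.

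Counted over the 6 tested genes, the test of any change over time called 4 in OE and 4 in WT, the same genes in both: WOX11/12a, WOX4a, WOX4b and Potri.005G101800.v3.0. That share has to be read against the background, since the same test called 63.5% of all genes in OE and 69.3% in WT. At 96 against 6 h, 1 gene was called higher and 3 lower in OE, where 31.1% of all genes were called higher and 28.9% lower, and 2 were called higher and 3 lower in WT, where 30.2% were called in each direction. At 12 against 6 h, 1 gene was called higher and 3 lower in OE (17.8% and 19% of all genes), and 1 higher and 2 lower in WT (17.6% and 18.4%). At 24 against 12 h, 1 gene was called higher in OE (1.81%) and 0 genes in WT (13.9% in either direction; 0 at an unadjusted p under 0.05, and 0 with DESeq2 or limma). At 48 against 24 h edgeR called 0 genes in OE (6.61% of all genes) and 0 in WT (5.58%), as did DESeq2 and limma, with 0 and 3 at an unadjusted p under 0.05. At 96 against 48 h, 0 genes were called in OE (7.18%; 2 at an unadjusted p under 0.05, 1 with DESeq2, 0 with limma) and 3 lower in WT (9.04%). At 96 against 24 h, 2 were called lower in OE (13.8%) and 3 lower in WT (15.5%). The median log2 fold change of the 6 genes at 96 against 6 h was -0.48 in OE and -0.37 in WT, and that of all genes was 0.05 and 0.03. At 12 against 6 h in WT, 0.709% of all genes had a fitted increase at least as large as that of WOX11/12a.

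The main comparison of the study, OE against WT, called none of the 6 genes. Averaged over the 5 times edgeR called 0 of 6 (1.16% of all genes in either direction), and 0 had an unadjusted p under 0.05. The same was found at 6 h (1.09% of all genes), 12 h (0.398%) and 48 h (0.0455%). At 24 h 0 of 6 were called (0.739%) and 1, Potri.002G008800.v3.0, had an unadjusted p under 0.05. At 96 h 0 of 6 were called (1.53%) and WOX11/12a and WOX4a had unadjusted p under 0.05. DESeq2 and limma also called 0 of 6 in each of these 6 comparisons, and so did each of the 20 fits that left out 1 library. The joint test of the genotype difference over time called 0 of 6 (1.65% of all genes; 1 at an unadjusted p under 0.05, 1 with DESeq2 and 0 with limma).

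The intervals of the average differences were narrow for 5 of the 6 genes. WOX4a averaged a log2 difference of 0.11 (95% confidence interval -0.03 to 0.26), WOX4b -0.12 (-0.30 to 0.06), Potri.005G101800.v3.0 0.09 (-0.03 to 0.20), Potri.005G252800.v3.0 0.11 (-0.07 to 0.29) and Potri.002G008800.v3.0 0.12 (-0.04 to 0.28). For WOX11/12a it was -0.20 (-0.70 to 0.29), which averages differences of both signs and gives the few counts at 6 h the same weight as the other times. Its value ranged from -0.99 to 0.02 when 1 library was left out. At single times, WOX4a at 96 h stood at 21.1 and 24.0 CPM in OE, against 17.9 and 15.8 CPM in WT, a difference of 0.42 (0.09 to 0.75; unadjusted p = 0.0157, adjusted p = 0.203). Potri.002G008800.v3.0 at 24 h had 8.67 and 10.1 CPM in OE, against 6.65 and 7.54 CPM in WT, a difference of 0.40 (0.03 to 0.77; unadjusted p = 0.0372, adjusted p = 0.407). The libraries of the genotypes did not overlap in either case.

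**Figure D4:**
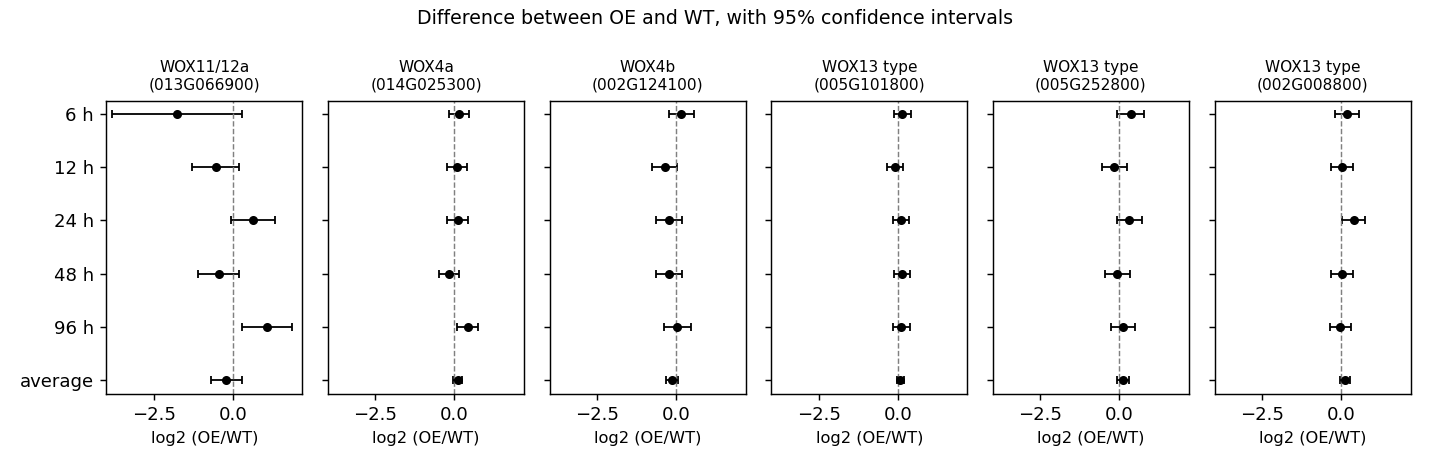
Log2 difference between OE and WT for the 6 tested WOX genes at each time and averaged over the times, with 95% confidence intervals; values right of the dashed line are higher in OE. The intervals of WOX11/12a at 96 h (0.28 to 1.88), WOX4a at 96 h and Potri.002G008800.v3.0 at 24 h leave out 0, but no value passed adjustment over all genes.

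Among all 26390 other tested genes, those whose log2 CPM followed the WOX genes most closely over the 20 libraries were identified by Pearson's r, as a description. The gene most like WOX11/12a was Potri.006G023500.v3.0 (chromosome 6, 1649352 to 1660198) with r = 0.958. In OE it had 0.499 ± 0.239 CPM at 6 h, 2.07 ± 0.354 at 24 h, 2.27 ± 0.292 at 48 h and 1.54 ± 0.0750 at 96 h (SD, n = 2). In WT it had 0.938 ± 0.332, 2.11 ± 0.888, 2.48 ± 0.0637 and 1.06 ± 0.225 CPM at the same times. It rose and fell as WOX11/12a did over a smaller range, but its highest mean in OE was at 48 h and not at 24 h. The gene most like WOX4a was Potri.012G133400.v3.0 (chromosome 12, 15001657 to 15004095) with r = 0.954, and the gene most like Potri.005G101800.v3.0 was Potri.002G146400.v3.0 (chromosome 2, 10897992 to 10902724) with r = 0.975. WOX4b stood at place 15 among the genes most like WOX4a (r = 0.920), and WOX4a at place 123 among those most like WOX4b. Potri.005G252800.v3.0 and Potri.002G008800.v3.0 were less alike, with r = 0.409, place 7227 in the order of likeness to the first and place 2814 in that of the second. The libraries share 5 times, so the 20 points are not independent.

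The tested gene models nearest to the WOX genes on the chromosome were compared by their medians, without a test. The 10 nearest tested gene models around WOX11/12a, 5 on each side, had a median average OE minus WT difference of 0.14 on the log2 scale (range -0.04 to 0.52), beside -0.20 for WOX11/12a. Around WOX4a and WOX4b the medians were 0.00 and -0.01, and around the 3 WOX13 type genes they were -0.02 to 0.02. For 96 against 6 h the neighbours of WOX11/12a had a median of -0.30 in OE and -0.21 in WT, with single neighbours as high as 4.60 in OE and 2.1 in WT.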

How the data were processed

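Counts, FPKM and normalized values for 39538 gene models were deposited by the authors as 1 table per library. Per the submitters' processing notes, TopHat2 2.1.1 and HTSeq 0.6.0 were used, without role or order; genome build, annotation release and strand setting: not given in the sources used here. The deposited count is a whole number. The deposited normalized signal equals the count times 1 factor per library for 68.1 to 76.3% of the models with counts (tolerance 0.05 plus a relative 0.001); among the 8 WOX genes the count exceeded that value by at most 1 read. The authors' FPKM values were used only to compare levels between genes, beside CPM per length computed from the counts, and the signal only with limma.

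The counts were tested in R 4.3.3 with edgeR 4.0.16: filterByExpr (26391 genes kept), TMM scaling, 1 group-means model over all 20 libraries with 10 residual degrees of freedom, the quasi-likelihood test and Benjamini-Hochberg adjustment over all genes in each of 21 comparisons. Intervals of log2 fold changes come from the same fit; counting intervals are exact binomial ones at 95% and cover counting error only. Alternatives were DESeq2 1.42.0, limma 3.58.1 on log2(signal + 1), median-of-ratios scaling, no filter, the 4 libraries of 1 time, an additive model, leaving out each library and, added after seeing the data, fewer times and counts per length.

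Total counts ranged from 10399262 to 27472303. Replicates differed by more than sampling noise (chi-square per degree of freedom 4.48 to 16.2); the labels carry no replicate numbers, and p-values measure only the spread between the 2 libraries of a group. The 8 genes and the tests were chosen with earlier results of these data known. All 8 are named; the most alike gene is given for the first tested gene of each subfamily. Lists of other genes by product could not be formed, because no table used here names genes.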

Additional observations from a re-analysis of the deposited data

How the results depend on the processing

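No paired analysis was possible because the labels carry no replicate numbers. Of 3095 recomputed values of single WOX genes, 3038 stayed on the same side of the threshold, 0 called values changed sign, and 84 uncalled values did; leaving out a library ended 21 calls and made 23. Median-of-ratios scaling changed no call. The additive model and the 4 libraries of a time alone covered only OE against WT. None of the 6 genes was called there in the main fit, so these settings could end no call, and they made none. The number of the 6 genes called changed from 0 to 1 for 96 against 48 h in OE with DESeq2 and with no filter, and for the genotype difference over time with DESeq2 (1). With limma it became 0 (main 1) for 24 against 12 h in OE and 1 (main 2) for 96 against 24 h in OE. In WT it became 5 (main 4) for any change over time and 2 (main 3) for 96 against 48 h with limma, 4 (main 5) for 96 against 6 h with DESeq2, and 4 (main 3) for 96 against 24 h with no filter. For any change over time in OE it became 2 (main 4) both from 12 to 96 h and at 24, 48 and 96 h only, where WOX4a and WOX4b lost their calls; the fall of these genes in OE thus rests on the 6 h libraries. The causes of the other changes were not tested. When 1 library was left out, the number called for OE against WT, at each time and on average, and for the genotype difference over time was 0 in every fit. In OE it ranged from 3 to 4 for 12 against 6 h, 0 to 1 for 24 against 12 h, 0 to 0 for 48 against 24 h, 0 to 1 for 96 against 48 h, 0 to 2 for 96 against 24 h, and 4 to 4 for 96 against 6 h and for any change. In WT it ranged from 3 to 4, 0 to 0, 0 to 0, 1 to 3, 1 to 4 and 3 to 5 for the same steps, and from 4 to 5 for any change. With counts per length in place of FPKM, the mean share of WOX11/12a was 1.70% (2.84% by FPKM) at 12 h, 4.30% (6.93%) at 24 h and 5.77% (8.48%) at 48 h. WOX11/12a at 6 h and WOX5a rested on few counts, and WOX11/12b had 0 counts. The reason for this was not tested.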
